A study of Rattus norvegicus with 16 samples.

Results

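The transforming growth factor-beta (TGF-beta) ligands, receptors and Smads are the core of 1 signaling pathway, and their mRNAs were examined here in the left ventricle of spontaneously hypertensive (SH) and Wistar Kyoto (WKY) rats that inhaled diesel exhaust (DE) or air. The set held 10 genes chosen by name: the ligands Tgfb1, Tgfb2 and Tgfb3, the receptors Tgfbr1, Tgfbr2 and Tgfbr3, and the signal transducers Smad2, Smad3, Smad4 and Smad7. All probe sets of the Affymetrix Rat 230A array whose annotation gave a member as the single gene were taken, which were 16 of the 15866 probe sets tested and covered 9 of the 10 genes. No probe set carried the symbol Tgfbr2, and this gene was not analysed here.

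RNA from 4 male rats per group was hybridized, 1 array per rat. The stated age of 12–14 weeks is that at purchase in the study's methods, before acclimatization and the weeks of exposure, so the hearts were older. The groups were SH-DE, SH-air, WKY-DE and WKY-air. The SH rat is an inbred model of hypertension, and the WKY rat is its normotensive control strain. In the DE groups whole-body exposure was to 2.0 mg/m3 of DE particles and in the air groups to clean air, on 5 days/week for 4 weeks. The sample records give 6 hr per day, and the study's methods give a shorter daily exposure. The methods describe the tissue as portions of the left ventricle with the septum, frozen 1 day after the last exposure, so each array reports a mixture of cell types, in which fewer cells of a type and less RNA per cell cannot be told apart. The array signals came from MAS5, which scales every array to the same trimmed mean, here 500. The number of arrays limits the precision, and it was the same in every group.

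TGF-beta is secreted as a latent complex and stored in the extracellular matrix until proteases, integrins or mechanical force release it. The active ligand joins the type II and type I receptors, the type I receptor kinase phosphorylates Smad2 and Smad3, and these enter the nucleus with Smad4, while Smad7 is induced as feedback inhibitor. In the heart the pathway is best known for driving fibroblasts to make collagen and other matrix proteins.

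Of the 16 member probe sets, 2 were called in SH-air against WKY-air, where 3.15% of all probe sets tested were called, Tgfb3 lower and 1 of the 2 probe sets of Tgfbr1 higher. In WKY-DE against WKY-air 1 was called, the same Tgfbr1 probe set, higher, where 1.88% of all probe sets were called. These comparisons share the WKY-air arrays. None was called in SH-DE against SH-air, where 0% of all probe sets were called, or in SH-DE against WKY-DE, where 0.813% were called, or in the strain by exposure interaction, where 0.0063% were called. At an unadjusted p under 0.05, these 5 comparisons in the same order held 4, 6, 2, 3 and 4 of the 16, and 17.5%, 20.5%, 6.16%, 13.3% and 12.5% of all probe sets. A probe set was called when limma's Benjamini-Hochberg adjusted p over all 15866 probe sets was under 0.05 and its unadjusted p under 0.01.

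The promoters of these 2 called genes are shown for reference, because they are the members on which the results turn. Each is the 300 bases from 250 before to 50 after a RefSeq transcript start in the GRCr8 rat assembly, 5′ to 3′ on the gene's strand. Capitals mark the letters GGGCGG (the GC box bound by Sp1 family factors) and CCAAT on either strand. Also searched on either strand were the Smad element CAGACA, its palindromic form GTCTAGAC, the cyclic AMP response element TGACGTCA, the AP-1 site TGANTCA and the TATA box TATAAA, and none of them matched here.
Tgfb3, chr6:111456897-111457196, minus strand: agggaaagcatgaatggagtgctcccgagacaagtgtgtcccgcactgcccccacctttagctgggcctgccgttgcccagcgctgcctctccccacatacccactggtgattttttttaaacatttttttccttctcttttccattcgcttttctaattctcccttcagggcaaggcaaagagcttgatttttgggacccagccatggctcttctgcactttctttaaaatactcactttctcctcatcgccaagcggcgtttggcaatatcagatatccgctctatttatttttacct
Tgfbr1, chr5:66449148-66449447, plus strand: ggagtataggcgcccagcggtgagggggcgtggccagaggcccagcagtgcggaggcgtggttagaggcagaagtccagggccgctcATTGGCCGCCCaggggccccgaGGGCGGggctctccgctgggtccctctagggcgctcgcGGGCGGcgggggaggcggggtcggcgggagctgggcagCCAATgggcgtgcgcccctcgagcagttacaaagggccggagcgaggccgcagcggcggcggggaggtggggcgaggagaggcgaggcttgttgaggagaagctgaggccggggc
The Tgfbr1 window held 3 GC boxes and 2 CCAAT boxes and was 74.7% G and C, whereas the Tgfb3 window held no match to any of the motifs and was 47.7% G and C. Among all 33469 rat promoters of this length in the RefSeq table, 33.1% held the GC box, 37.5% the CCAAT box, 21.1% the Smad element, 0.197% its palindromic form, 1.83% the cyclic AMP response element, 7.33% the AP-1 site and 14.2% the TATA box. A CCAAT box on the minus strand and a GC box adjoin at the first capitals of the Tgfbr1 window, without overlap. These are letter matches and say nothing of binding in these hearts.

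**Figure D1:**
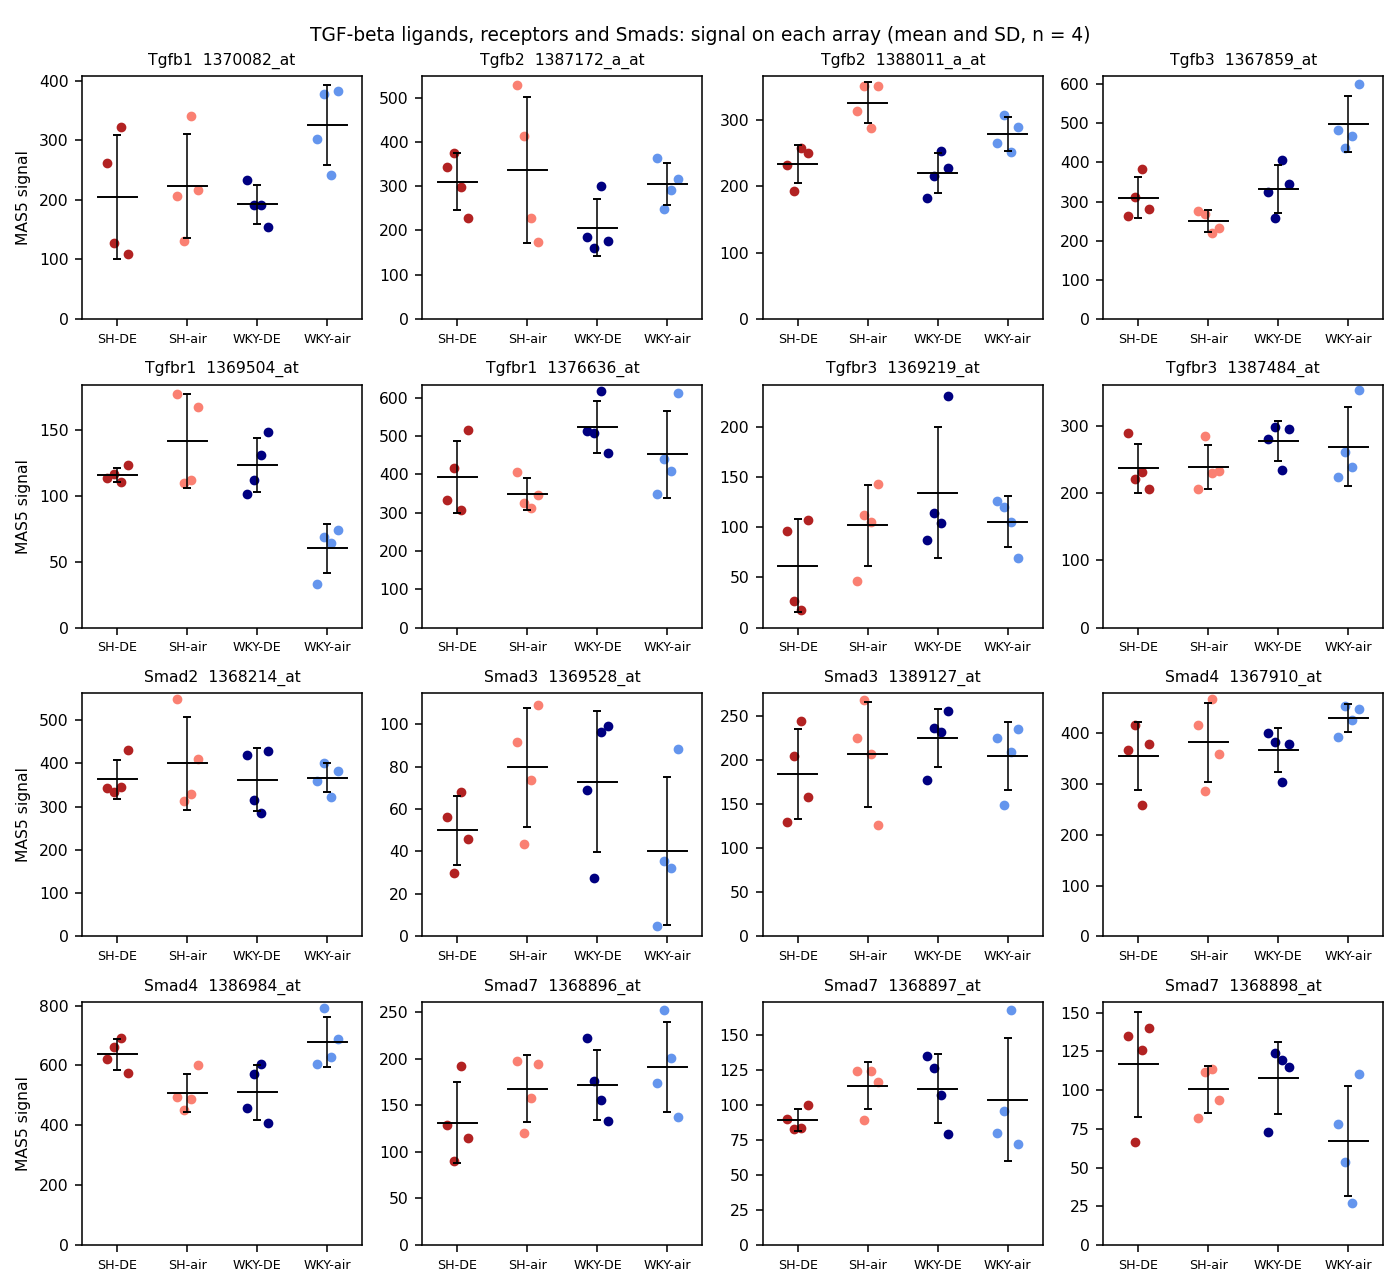
MAS5 signal (y axis, linear, from 0) of the 16 probe sets of the TGF-beta ligands, receptors and Smads on each of the 16 arrays, by group, with the group mean (long bar) and SD (n = 4). Tgfb3 is highest in WKY-air (438 to 602), and Tgfbr1 probe set 1369504_at is lowest there (33.3 to 73.9), in both cases apart from every array of the other groups.

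Among the ligands, Tgfb3 differed most in SH-air against WKY-air. Tgfb3 (probe set 1367859_at, chromosome 6), a ligand known in mice for its part in palate fusion, had signals of 277, 269, 219 and 233 on the SH-air arrays, against 484, 438, 467 and 602 on the WKY-air arrays. Every SH-air array lay below every WKY-air array, and the means were 249 ± 27.7 and 497 ± 71.9 (SD, n = 4 each). The difference was called (log2 fold change −0.95 ± 0.16 SE, fold 0.519, adjusted p = 0.00531 in limma). On the WKY-DE arrays Tgfb3 was 324, 257, 405 and 345, a mean of 333 ± 61.3, again below every WKY-air array. This difference from WKY-air missed the threshold (log2 fold change −0.57 ± 0.16 SE, adjusted p = 0.0722 in limma). It passed in 3 of 27 alternatives, when the dimmest 40% of probe sets were left out (limma adjusted p = 0.0355), with array weights (0.0440) and with an intensity trend and robust moderation (0.0468). In the other 24 it did not, and leaving out each array in turn gave limma adjusted p of 0.0635 to 0.157. The SH-DE arrays had 263, 313, 383 and 281, a mean of 310.0 ± 52.8. They overlapped both the SH-air arrays (log2 fold change 0.29, 95% interval −0.05 to 0.62, limma adjusted p = 0.843) and the WKY-DE arrays (log2 fold change −0.09, 95% interval −0.43 to 0.24, limma adjusted p = 0.840).

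The order of the Tgfb3 means was thus WKY-air, WKY-DE, SH-DE and SH-air, and the neighbors WKY-DE and SH-DE, and SH-DE and SH-air, overlapped. Averaged over both exposures, Tgfb3 was lower in SH than in WKY rats (log2 fold change −0.52 ± 0.11 SE, adjusted p = 0.0153 in limma), the only 1 of 16 member probe sets called there, beside 4.07% of all probe sets. The difference between the DE effects of SH and WKY rats was 0.85 in log2 fold change (SE 0.22, unadjusted p = 0.00167) and did not pass the test over all probe sets (limma adjusted p = 0.199).

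Tgfb1 (1370082_at), the ligand best known from cardiac fibrosis, varied widely in SH rats. Its signal was 233, 191, 191 and 154 in WKY-DE, all below the 302, 378, 242 and 382 of WKY-air. The means of 192 ± 32.1 in WKY-DE and 326 ± 67.2 in WKY-air differed by −0.71 in log2 fold change (SE 0.32), which did not pass (limma, adjusted p = 0.222). In SH rats the arrays ranged between 108 and 322 with DE and between 131 and 341 with air, so that both groups overlapped each other and WKY-air. The SH-air against WKY-air difference was −0.56 (95% interval −1.24 to 0.11, limma adjusted p = 0.378). The interval takes in both no change and a reduction of more than 1 on the log2 scale, so these arrays do not settle the direction of Tgfb1 between the strains.

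Tgfb2 has 2 probe sets, which correlated weakly with each other over the 16 arrays (r = 0.278). By 1388011_a_at the signals were 232, 193, 258 and 250.4 in SH-DE, all below the 314, 352, 287 and 352 of SH-air. The log2 fold change was −0.46 (SE 0.13, unadjusted p = 0.00278), which did not pass over all probe sets (limma adjusted p = 0.628). The same probe set was 183, 215.6, 254 and 228 in WKY-DE and 265, 308, 252 and 289.9 in WKY-air, 3 of the 4 WKY-DE arrays below all of WKY-air (log2 fold change −0.33, limma adjusted p = 0.171). Averaged over both strains the DE effect was −0.39 (SE 0.09, unadjusted p = 0.00062, limma adjusted p = 0.102), the lowest p of the members in this comparison, in which 0 of 16 member probe sets and 0.145% of all probe sets were called. It was called only when the dimmest 40% of probe sets were left out (limma adjusted p = 0.0410). The other probe set of Tgfb2, 1387172_a_at, ranged from 174 to 529 in SH-air alone and showed −0.01 in SH-DE against SH-air and −0.56 in WKY-DE against WKY-air, neither of which passed (limma adjusted p = 0.9996 and 0.299).

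Among the receptors, the 2 probe sets of Tgfbr1, the type I receptor kinase that phosphorylates Smad2 and Smad3, disagreed. Probe set 1369504_at read 177, 109.5, 112 and 167 in SH-air and 102, 112, 131 and 148 in WKY-DE, against 33.3, 68.8, 64.4 and 73.9 in WKY-air. All SH-air and all WKY-DE arrays lay above all WKY-air arrays. The SH-air difference was called (log2 fold change 1.06 ± 0.20 SE, fold 2.08, adjusted p = 0.0109 in limma), and so was the WKY-DE difference (log2 fold change 0.90 ± 0.20 SE, fold 1.86, adjusted p = 0.0385 in limma). In SH-DE it was 114, 116, 110.4 and 123, within the SH-air and WKY-DE ranges, so WKY-air was the one group apart. The interaction term was −1.12 (SE 0.28, unadjusted p = 0.00111, limma adjusted p = 0.185).

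The other probe set of Tgfbr1, 1376636_at, was the brighter one and read 406, 326, 312 and 347 in SH-air and 513, 507, 618 and 457 in WKY-DE, against 347, 440.0, 409 and 612 in WKY-air. Both groups overlapped WKY-air, with log2 fold changes of −0.34 (95% interval −0.74 to 0.05) in SH-air and 0.23 (−0.17 to 0.62) in WKY-DE (limma adjusted p = 0.361 and 0.519). In SH-air the 2 probe sets thus lay on opposite sides of WKY-air, and over the 16 arrays they were almost unrelated (r = 0.0303). The annotation gives a RefSeq mRNA record as the target of 1369504_at and another sequence record as that of 1376636_at. Which of the 2 follows the Tgfbr1 transcript was not tested. The called probe set, 1369504_at, was among the dimmest 40% of all probe sets by mean signal. Its WKY-DE call was lost after quantile normalization (log2 fold change 0.68, limma adjusted p = 0.117), and the median of all probe sets in this comparison was 0.10 on the log2 scale as deposited and 0.01 after quantile normalization. It was also lost on leaving out SH-DE replicate 1 (limma adjusted p = 0.0504), WKY-air replicate 1 (0.0694), 2 (0.0527) or 4 (0.0540), or WKY-DE replicate 1 (0.0644), 2 (0.0755), 3 (0.0767) or 4 (0.0915). Its SH-air call was lost when the SH-air and WKY-air arrays were fitted alone (limma adjusted p = 0.0843).

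Tgfbr3 encodes betaglycan, the co-receptor that presents TGF-beta2 to the signaling receptors. Its brighter probe set, 1387484_at, had means of 237 ± 36.4 in SH-DE, 239 ± 33.3 in SH-air, 278 ± 29.9 in WKY-DE and 269.7 ± 58.3 in WKY-air, and the ranges of all 4 groups overlapped. Its log2 fold changes lay within intervals of −0.35 to 0.32 for DE in SH rats and −0.28 to 0.39 for DE in WKY rats. The dim probe set 1369219_at read 96, 26.3, 17.1 and 107 in SH-DE and 87.6, 114, 104 and 231 in WKY-DE. This was the lowest fold change of any member between 2 groups (log2 fold change −1.09, SE 0.42), and it did not pass (limma, adjusted p = 0.285).

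**Figure D2:**
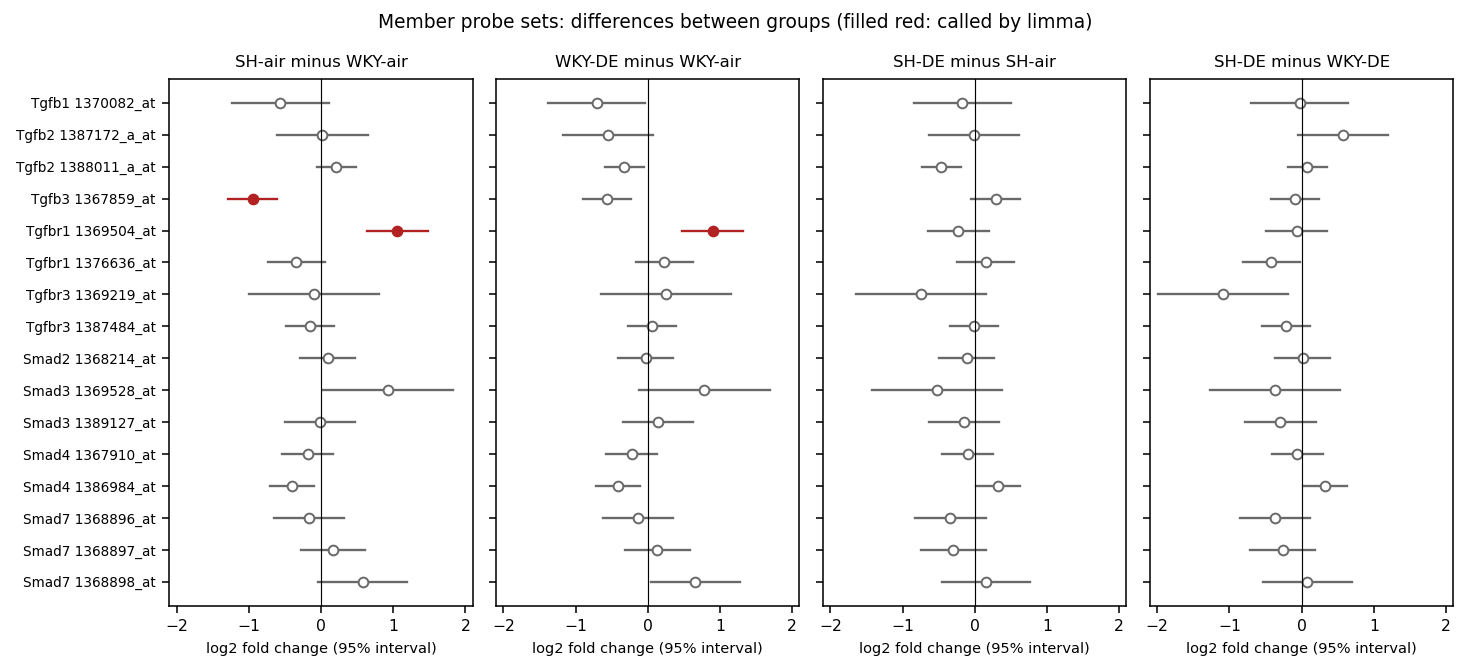
Log2 fold change (x axis) with its 95% interval for each of the 16 member probe sets (rows) in 4 comparisons, from the limma fit of all 16 arrays. The called probe sets, filled red, are Tgfb3 (−0.95) and Tgfbr1 1369504_at (1.06) in SH-air minus WKY-air and Tgfbr1 1369504_at (0.90) in WKY-DE minus WKY-air, and none in the other 2 panels.

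The Smads showed no called difference in any comparison. Smad2, which carries the signal of the activated receptor, had means of 363 ± 45.7 in SH-DE, 400.2 ± 107 in SH-air, 362 ± 72.9 in WKY-DE and 366 ± 33.9 in WKY-air. All groups overlapped, and the SH-air against WKY-air difference was 0.09 (95% interval −0.29 to 0.47, limma adjusted p = 0.837). Smad3, its close relative, was measured by a brighter probe set (1389127_at), with group means between 184 and 225 and log2 fold changes between −0.29 and 0.14 in the 4 pairwise comparisons. The dim Smad3 probe set (1369528_at) went as low as 4.79 on 1 WKY-air array, and its fold change in SH-air against WKY-air of 0.93 had an SE of 0.42 (limma adjusted p = 0.266).

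Smad4, the common partner of the receptor-activated Smads, came nearest to a pattern. Probe set 1386984_at read 622, 661, 693 and 574 in SH-DE and 495, 450.5, 488 and 601 in SH-air. In WKY rats the order was the reverse, with 459, 571, 604 and 406 in WKY-DE and 604, 792, 628 and 688 in WKY-air. All SH-air arrays lay below all WKY-air arrays (log2 fold change −0.40 ± 0.14 SE, adjusted p = 0.156 in limma), and so did all WKY-DE arrays, the nearest of them by less than 1 signal unit (log2 fold change −0.41, limma adjusted p = 0.133). The DE effect in SH rats was 0.32 (limma adjusted p = 0.796), and the interaction of 0.73 (SE 0.20, unadjusted p = 0.00271) did not pass over all probe sets (limma adjusted p = 0.215). The other probe set of Smad4, 1367910_at, gave −0.10 for DE in SH rats and −0.22 for DE in WKY rats, with an r of 0.0734 between the 2 probe sets.

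Smad7, the inhibitory Smad that TGF-beta itself induces, was read by 3 probe sets, all of the same target sequence record. The brightest, 1368896_at, averaged 132 ± 43.3 in SH-DE, 168 ± 36.1 in SH-air, 172 ± 37.9 in WKY-DE and 191 ± 48.3 in WKY-air. Every comparison overlapped, and the largest difference, SH-DE against WKY-DE, was −0.37 (95% interval −0.86 to 0.12, limma adjusted p = 0.516). The 2 dimmer probe sets correlated with the brightest in opposite directions over the 16 arrays, 1368897_at at r = 0.507 and 1368898_at at r = −0.425. Of the 8 pairs of probe sets that read the same gene in this set, the highest correlation was this 0.507. Against WKY-air the brightest gave −0.17 in SH-air and −0.13 in WKY-DE, and both dimmer ones lay on the other side. Probe set 1368897_at gave 0.17 and 0.13 (limma adjusted p = 0.734 and 0.759). Probe set 1368898_at gave 0.58 and 0.65 (limma adjusted p = 0.318 and 0.216), with an unadjusted p of 0.0388 in WKY-DE.

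By arrays, the member groups were fully apart in 3 of 16 probe sets for SH-air against WKY-air (2 lower, 1 higher), in 4 for WKY-DE against WKY-air (3 lower, 1 higher), in 1 for SH-DE against SH-air (lower) and in 0 for SH-DE against WKY-DE. The groups were fully apart in 11.3%, 12.7%, 4.08% and 8.80% of all 15866 probe sets in the same order, where 3.15%, 1.88%, 0% and 0.813% were called. The median log2 fold changes of the 16 member probe sets were −0.05, 0.01, −0.13 and −0.08 in the same order, and those of all probe sets were 0.02, 0.10, −0.0014 and −0.09. Gene by gene, with each gene read by its brightest probe set, 1 of 9 members was called lower in SH-air against WKY-air (1.93% of 10411 genes) and 0 higher (1.33%). None of the 9 was called lower (0.586% of genes) or higher (1.39%) in WKY-DE against WKY-air. Over both exposures, 1 of 9 was lower in SH rats (2.32%) and 0 higher (1.89%).

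Other genes of the pathway were read from 6 lists by role, again with 1 probe set per gene. The list of latency and activation, which holds the matrix proteins and proteases that store and release TGF-beta, had 10 of its 16 genes measured. The median log2 fold change in SH-air against WKY-air was −0.47, beside 0.02 over all genes. There 2 genes of the list were called, both lower, where 1.93% of all 10411 genes were called lower. They were Mmp2, a gelatinase (mean 921.6 in SH-air against 1532 in WKY-air, log2 fold change −0.73 ± 0.15 SE, adjusted p = 0.0191 in limma), and Mmp14, the membrane protease that activates it (253 ± 9.69 and 465 ± 104, log2 fold change −0.82 ± 0.17 SE, adjusted p = 0.0168 in limma). Mmp14 was 463.8 ± 49.0 in WKY-DE, close to the 465 ± 104 of WKY-air. One of the 2 calls was lost on leaving out SH-air replicate 4, WKY-air replicate 1 or WKY-air replicate 4. The WKY-DE against WKY-air comparison called 0 of the 10, with a median of −0.28. The brightest genes of the list were Ltbp4, a latent TGF-beta binding protein, Mmp2 and Plat, tissue plasminogen activator, and the log2 fold changes of Ltbp4 and Plat in SH-air against WKY-air were −0.50 and −0.37 (limma adjusted p = 0.190 and 0.269). Over both exposures Mmp14 (−0.61, limma adjusted p = 0.00766) and Mmp2 (−0.40, limma adjusted p = 0.0495) were the genes of the list called. Both were lower in SH rats, where 2.32% of all genes were called lower. This average includes the air arrays. In SH-DE against WKY-DE 0 of the 10 were called (median −0.13), and Mmp2 stood at −0.08 (limma adjusted p = 0.858).

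The list of other ligands of the superfamily held bone morphogenetic proteins, growth differentiation factors, activins and their kin. By its name it also took in Bmp1, which encodes a protease and not a ligand. Of the genes of this list 14 of 19 were measured. None was called in SH-air against WKY-air (median −0.16) or in WKY-DE against WKY-air (median 0.08). The brightest were Inha, the alpha chain of inhibin, Bmp6 and Gdf11. Of the other receptors of the superfamily 9 of 11 were measured and none was called in either comparison (medians −0.05 and 0.00). Eng, the endothelial co-receptor endoglin, was the brightest, with 723 ± 107 in WKY-DE and 1222 ± 261 in WKY-air (log2 fold change −0.73, limma adjusted p = 0.0851), followed by the BMP receptors Bmpr2 and Bmpr1a. Of the other Smads, Smad partners and non-Smad kinases 14 of 17 were measured and none was called (medians 0.01 and 0.04). Its brightest genes were Strap, an adaptor that holds Smad7 at the receptor, and Map3k7 and Tab2, a kinase and its binding protein in the non-Smad branch. At an unadjusted p under 0.05, these 3 lists held 2, 2 and 1 genes in SH-air against WKY-air and 0, 1 and 1 genes in WKY-DE against WKY-air, where 18.0% and 21.1% of all 10411 genes had such a p.

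Of the inhibitors of TGF-beta and BMP signaling 19 of 23 were measured, with a list median of −0.11 in SH-air against WKY-air. There 2 were called lower, where 1.93% of all 10411 genes were called lower. Both are small leucine-rich matrix proteoglycans that bind TGF-beta. Fmod, fibromodulin, averaged 217 ± 99.1 in SH-air, against 1053 ± 504 for WKY-air (log2 fold change −2.15 ± 0.45 SE, adjusted p = 0.01997 in limma). Dcn, decorin, averaged 8229 ± 1153 in SH-air, against 11964 ± 673 for WKY-air (log2 fold change −0.55 ± 0.12 SE, adjusted p = 0.0267 in limma). Leaving out SH-air replicate 4, WKY-air replicate 1 or WKY-air replicate 4 left 0 calls, and leaving out SH-air replicate 1, SH-air replicate 3 or WKY-air replicate 3 left 1. With DE in WKY rats 0 were called (median −0.14), and 1 on leaving out SH-DE replicate 4. Over both exposures Ppm1a, a phosphatase of Smad2 and Smad3, was higher in SH rats (log2 fold change 0.38 ± 0.09 SE, adjusted p = 0.0249 in limma). It was the 1 gene of the 19 called there, where 1.89% of all genes were called higher. The brightest of the list after Dcn were Fkbp1a, which binds the type I receptor, and Bgn, biglycan, with log2 fold changes of −0.01 and −0.08 in SH-air against WKY-air.

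Genes that TGF-beta is known to induce, 27 of 28 of them measured, were the largest of these lists and had the most calls. In SH-air against WKY-air the list median was −0.44, and 6 were called, all lower, where 1.93% of all 10411 genes were called lower. They were Cdkn1a, the cell cycle inhibitor p21 (752 ± 107 in SH-air, against 1829 ± 204 in WKY-air, log2 fold change −1.27 ± 0.17 SE, adjusted p = 0.00115 in limma), Tsc22d1, a TGF-beta-stimulated leucine zipper gene (−0.83, limma adjusted p = 0.0119), the collagen chains Col3a1 (−0.73, limma adjusted p = 0.0203) and Col1a2 (−0.81, limma adjusted p = 0.0451), fibronectin Fn1 (−0.96, limma adjusted p = 0.0346) and Tgfbi, a matrix adaptor protein (−0.52, limma adjusted p = 0.0494). Leaving out SH-air replicate 3 or 4 or WKY-air replicate 1 left 2 calls, and leaving out WKY-air replicate 3 or 4 left 3.

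In WKY-DE against WKY-air the list median was −0.34, and 3 of these 27 were called, all lower, where 0.586% of all genes were called lower. They were Cdkn1a (827 ± 175 in WKY-DE, against 1829 ± 204 in WKY-air, log2 fold change −1.15 ± 0.17 SE, adjusted p = 0.0155 in limma), Ccn2, connective tissue growth factor (1708 ± 289.6 in WKY-DE, against 2987 ± 469.6 in WKY-air, −0.80 ± 0.19 SE, adjusted p = 0.0462 in limma), and Col1a2 (−0.85, SE 0.21, limma adjusted p = 0.0498). One call was left on leaving out SH-air replicate 3 or 4, SH-DE replicate 2, WKY-air replicate 1, 3 or 4, or WKY-DE replicate 1, 2 or 4. None was called in SH-DE against SH-air (median 0.08), in SH-DE against WKY-DE (median −0.10) or in the interaction (median 0.47), with 1, 4 and 11 of 27 at an unadjusted p under 0.05, beside 6.20%, 13.5% and 12.6% of all genes. Over both exposures 4 were called lower in SH rats, namely Cdkn1a, Tsc22d1, Col3a1 and Fn1, where 2.32% of all genes were called lower. After Tsc22d1 the brightest was Sparc, a collagen-binding matrix protein, with −0.29 in SH-air and −0.37 in WKY-DE against WKY-air, neither of which passed. Of these genes Col1a1, Col1a2, Col3a1, Postn and Thy1 are also on the fibroblast marker list, as is Dcn among the inhibitors.

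**Figure D3:**
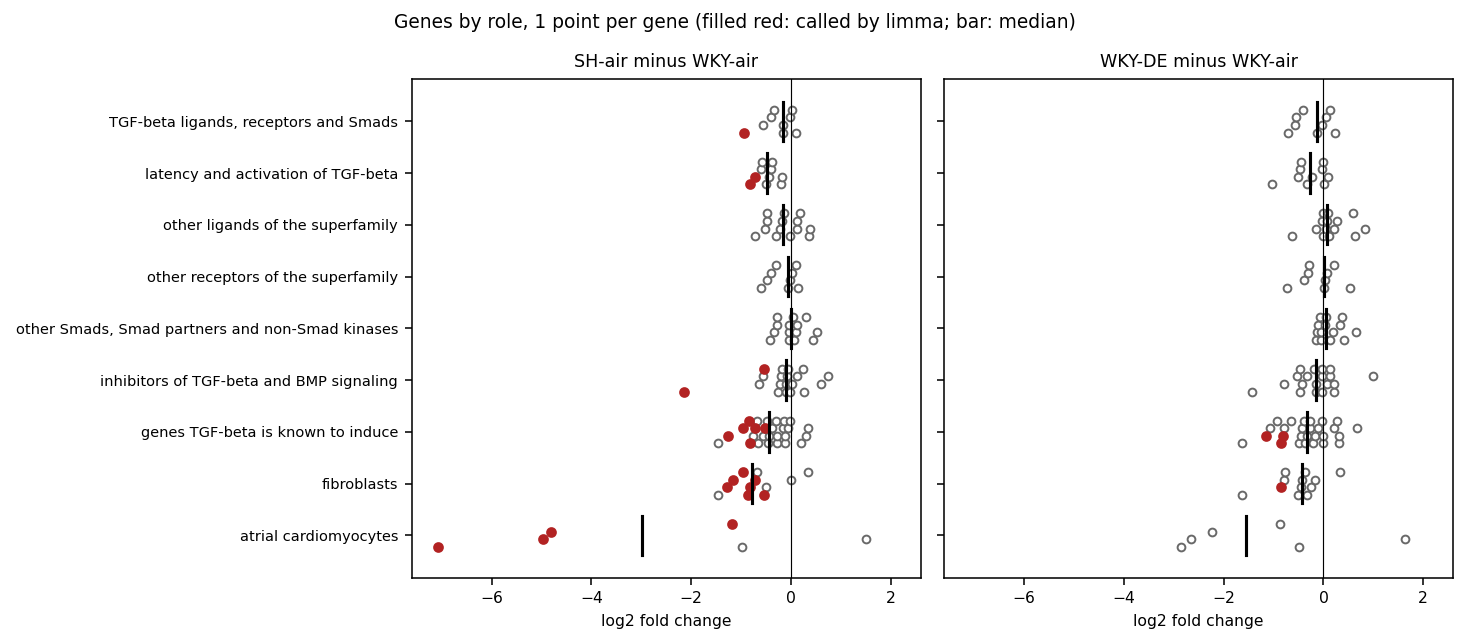
Log2 fold change (x axis) of each gene, read by its brightest probe set, in 7 lists of the TGF-beta pathway by role and 2 lists of cell type markers (rows), in SH-air minus WKY-air and WKY-DE minus WKY-air. Bars are list medians and filled red points are genes called by limma, all of them below 0, with 6 among the genes TGF-beta is known to induce in the left panel and 3 in the right.

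The genes whose signal followed Tgfb3 most closely over the 16 arrays were Fmod (r = 0.938), the atrial myosin light chain Myl4 (0.917), the carbonic anhydrase Car3 (0.914), Serpinf1, which encodes the secreted protein PEDF (0.911), and the atrial myosin light chain Myl7 (0.911). These are correlations of log2 values, described here without a test, and the points share group, array scaling and dissection. Fmod read 220.3, 415, 527 and 222 in SH-DE, 275, 326, 129 and 137 in SH-air, 264, 196, 647 and 404 in WKY-DE, and 1602, 426, 911 and 1271 in WKY-air. Its lowest WKY-air array, at 426, is also the one with the lowest Tgfb3, 438. The Spearman correlation was 0.947, and without the 2 arrays farthest from the median of Fmod (WKY-air replicates 1 and 4) the r was 0.924. Within groups, on residuals from the group means, the closest genes were Cdo1 (r = 0.862), Ccnl2 (0.858), Tmem72 (0.858), Fmod (0.838) and Fxyd7 (0.814). Fmod was the only gene on both lists of 5.

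By the r of log2 values over the 16 arrays, markers of atrial cells and fibroblasts moved most closely with Tgfb3. Those of endothelium (r = 0.663) and of smooth muscle and pericytes (r = 0.610) followed less closely by this measure. Ventricular markers were abundant on every array (8 measured genes summing to signals of 205014 to 248121 in SH-DE, 255670.0 to 275487 in SH-air, 195423 to 289526 in WKY-DE and 256414 to 366788 in WKY-air). The 6 atrial markers summed to 13909 to 35339 in SH-DE, 13372 to 25021 in SH-air, 13877 to 43579 in WKY-DE and 34083 to 97658 in WKY-air. None of the SH-air arrays reached the lowest WKY-air array. In SH-air 4 of the 6 atrial markers were called lower (Myl7, Myl4, Sln and Dkk3), with a list median of −2.99, where 1.93% of all genes were called lower. In WKY-DE against WKY-air 0 were called, with a list median of −1.55, where 0.586% of all genes were called lower. All 6 had an unadjusted p under 0.05 in both comparisons, 5 with lower estimates, while Cpne5 had log2 fold changes of 1.51 in SH-air (limma adjusted p = 0.0726) and 1.64 in WKY-DE (limma adjusted p = 0.0619). Myl7, the atrial light chain, read 33.5, 154, 33.4 and 75 in SH-air, against 25946, 4415, 11451 and 9718 in WKY-air.

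The 12 fibroblast markers summed to 22859 to 25298 in SH-DE, 19104 to 22647 in SH-air, 22237 to 28876 in WKY-DE and 29730 to 37578 in WKY-air, so that every WKY-air array was above all arrays of the other groups. Of these markers 7 were called lower in SH-air against WKY-air and 1 in WKY-DE against WKY-air, with medians of −0.77 and −0.44. Of all genes 1.93% and 0.586% were called lower in the same order. Over the 16 arrays Tgfb3 correlated with the mean log2 of the atrial markers at r = 0.915 (Spearman 0.900, residuals from group means 0.781). With that of the fibroblast markers the r was 0.914 (Spearman 0.832, residuals 0.660). On residuals the smooth muscle and pericyte markers, at 0.680, followed Tgfb3 as closely as the fibroblast markers, and the endothelial markers stood at 0.402. With the mean log2 of the atrial markers as a covariate, the Tgfb3 difference between SH-air and WKY-air was −0.42 and no longer called (limma adjusted p = 0.799), and the Tgfbr1 1369504_at difference was 0.91 (limma adjusted p = 0.663). The Tgfb3 difference between strains over both exposures was then −0.20 (limma adjusted p = 0.765), and 0 genes were called in SH-air against WKY-air among the lists of latency and activation, inhibitors and genes TGF-beta is known to induce. The share of all probe sets called in this fit was not counted, so the lost calls cannot be set beside it. This covariate differs between the groups itself, and the part of either cell type in the Tgfb3 difference was not tested.

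**Figure D4:**
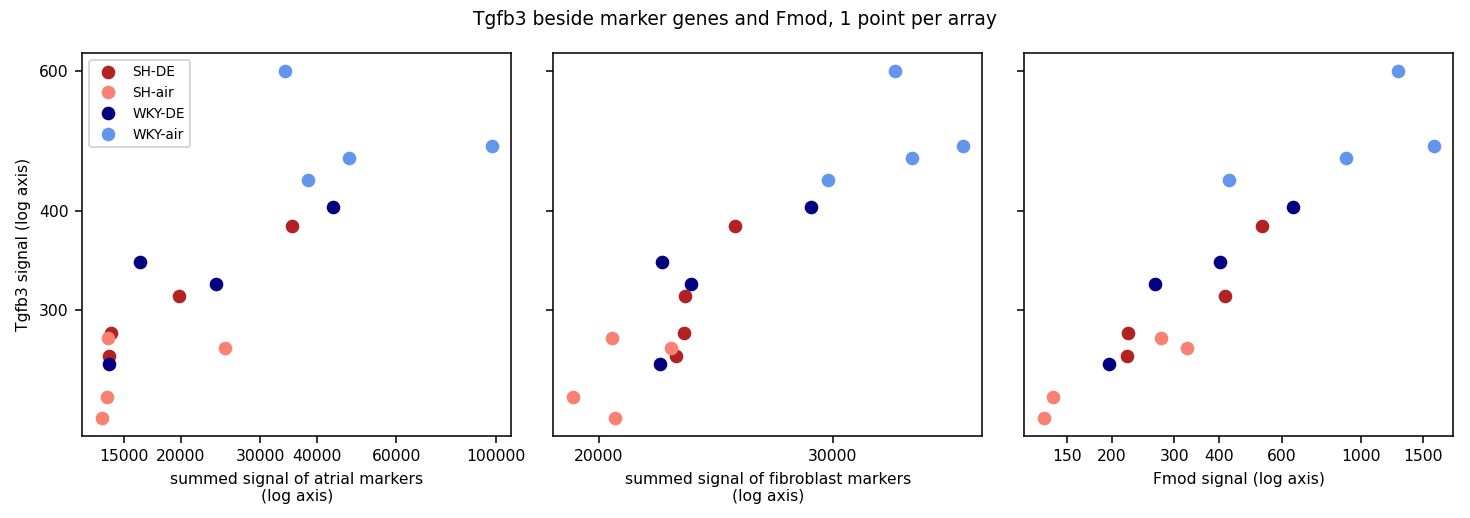
Tgfb3 signal (y axis, log) on each of the 16 arrays against the summed signal of 6 atrial markers, of 12 fibroblast markers and the Fmod signal (x axes, log). The WKY-air arrays (438 to 602 for Tgfb3) lie above all other arrays on the y axis and the DE arrays overlap the SH-air arrays (219 to 277). On the atrial and Fmod axes, replicate 3 of WKY-DE and replicate 3 of SH-DE lie above the lowest WKY-air array.

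For the arrays with the highest atrial sums of the DE groups, WKY-DE replicate 3 (43579) and SH-DE replicate 3 (35339), Tgfb3 was also the highest of its group, at 405 and 383. Without both, 2 member probe sets were called in SH-air against WKY-air and 0 in WKY-DE against WKY-air, where Tgfbr1 1369504_at stood at 0.87 (limma adjusted p = 0.0858). Ventricular markers had negative medians with DE, −0.29 in SH rats (8 of 8 estimates negative) and −0.37 in WKY rats (7 of 8), with 0 called in either, and every SH-DE array summed below every SH-air array. Their part in the member results was not tested. In SH-air against WKY-air 0 of 8 ventricular, 0 of 7 endothelial, 0 of 9 smooth muscle and pericyte, 0 of 7 macrophage, 0 of 7 lymphocyte, 0 of 3 platelet and 0 of 3 epicardial markers were called. In this comparison 1.93% of all genes were called lower and 1.33% higher. In WKY-DE against WKY-air 1 lymphocyte marker of 7, Cd3g, was called higher (log2 fold change 1.31, limma adjusted p = 0.0346), where 1.39% of all genes were called higher. Over both exposures 1 endothelial marker of 7, Vwf, was called lower in SH rats (log2 fold change −0.71, limma adjusted p = 0.00569), where 2.32% of all genes were called lower.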

How the data were processed

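Left ventricular RNA was measured on 16 Affymetrix Rat 230A arrays, 4 per group. The labels number them as replicates, and the study's methods call them biological replicates, so each was taken as a separate rat. The deposited table holds 1 intensity (MAS5 signal, linear) per probe set and array, which the authors scaled, as its values show, so that the mean without the top and bottom 2% was 500. The study's methods name the Microarray Suite release (MAS5) at its default setting, and the sample records give no version. Detection calls were not used. Groups were taken from the sample labels.

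From these, 57 control probe sets were left out and log2(signal + 16.1) was taken, the offset being the 10th percentile of all values. The fold changes are on that scale and understate changes of dim probe sets. Group means were compared in 1 model with limma 3.58.1 in R 4.3.3 (12 residual and 2.68 prior degrees of freedom), with Benjamini-Hochberg adjustment over 15866 probe sets. The fit was tested on simulated data.

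Probe sets were named by the platform annotation, with symbols updated by Entrez identifier: 12783 had 1 gene, 312 several and 2771 none. All member probe sets are given. Of each other pathway list, up to 4 called genes of lowest p per comparison and the 3 brightest are named, and for the member of lowest F p the 5 genes most like it. Members, lists and tests were chosen with earlier results of these data known. Promoters came from RefSeq (GRCr8), where all 10 members matched. Exposure hours differ between the sources used. Alternatives changed the threshold, offset, normalization, filter, moderation, weights, arrays fitted, replicate block and an atrial marker covariate.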

Additional observations from a re-analysis of the deposited data

Results flagged for a closer look

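Of 64 sets of 4 arrays (16 member probe sets in 4 groups), 1 held an array far from the others by Dixon's test at its 95% critical value, where chance gives about 1 in 20. Smad2 read 431 on SH-DE replicate 4, against 345, 343 and 333 on the other 3 SH-DE arrays, and its gap was 0.879 of the range. No strain by exposure interaction of a member passed the test over all probe sets.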

How the results depend on the processing

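The number of member probe sets called in SH-air against WKY-air was 2, and it was 1 with an adjusted p under 0.01, without the dimmest 40% of probe sets or with the compared groups alone, 0 with the atrial marker covariate and 2 to 2 when each array was left out in turn. In WKY-DE against WKY-air 1 was called, 0 with an adjusted p under 0.01, quantile normalization, the compared groups alone, the replicate block, the atrial marker covariate or both DE arrays numbered 3 left out, 2 with an intensity trend and robust moderation or with array weights, and 0 to 1 when leaving out arrays. Over both exposures the 1 call between strains became 0 with an adjusted p under 0.01 or the atrial marker covariate and 2 with quantile normalization or array weights. The DE effect over both strains had 0 calls, and 1 without the dimmest 40%. No called member changed direction in any alternative. Replicate numbers did not pair the arrays (r of residuals from −0.10 to 0.05 between same-numbered arrays of different groups). With them as a replicate block 2 member probe sets were called in SH-air against WKY-air, Tgfb3 had a limma adjusted p of 0.0187 there, the Tgfbr1 call in WKY-DE was lost (limma adjusted p = 0.0579), and the calls among genes TGF-beta is known to induce went to 3 in SH-air and 1 in WKY-DE. Of that list, 0 to 9 genes were called in SH-air and 0 to 7 in WKY-DE over all alternatives. The causes were not tested. Probe set 1369504_at of Tgfbr1 was among the dimmest 40% of all probe sets, and the part of low signal in its results was not tested.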
